A study of Bos taurus with 22 samples.

Results

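Some genes of the bovine jejunal mucosa were read at clear levels in many steers and not at all in others. The genes described here are the 16 protein-coding genes, of 21848 protein-coding rows and 27570 rows in all, that had at most 3 counts in at least 4 of 22 steers and at least 5 CPM (the count as a share of the library total, scaled to a common total of 1e6) in at least 8 steers. Because these counts chose the genes, the spread of each gene between steers is a description and not a finding. Below, a gene is called absent in a steer with at most 3 counts, which is 0.105 to 0.341 CPM depending on the depth of the library, and an absent gene is only not detectable at that depth. Of the 16 genes, 6 were all or none, with at most 2 of 22 steers between absent and 5 CPM. The other 10, called graded below, had 3 to 10 steers between. The split rests on the 5 CPM line, and not all of the 10 spread evenly. BOLA-DQA5 had 0 counts in 5 steers and at least 25 in the others. TAT had no steer between 0.57 and 7.75 CPM.

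RNA-seq was performed on scraped jejunal mucosa from 22 Holstein steers, each on an abomasal infusion of raw corn starch (3.94 g per kg of body weight per day) for 7 d. The 5 control steers (blocks 1, 2, 3, 4 and 5) received abomasal water and a subcutaneous vehicle of bovine serum albumin (BSA), and the 5 GLP-2 steers (blocks 1, 3, 4, 5 and 6) received water and 100 µg of glucagon-like peptide 2, an intestinotrophic gut hormone, per kg of body weight per day. The 6 casein steers received sodium caseinate (1.3 g per kg of body weight per day) with the BSA vehicle, and the 6 casein + GLP-2 steers received both. Blocks 1 to 6 grouped steers by body weight, which the labels give as 220.0 to 294.1 kg, and each number in a steer's name below is its block. The paper used blocks because stalls and infusion equipment were limited, so blocks need not differ in body weight alone. The labels give no age.

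Total counts per library ranged from 8809666 to 28447810 with a median of 12028560.5, so 5 CPM stood for 44.05 to 142 counts. The mucosa was a mixture of cell types, and fewer cells of a type and less RNA per cell cannot be told apart. The score of 23 villus enterocyte genes (mean log2 CPM) was 6.30 to 10.36 in the 11 BSA steers and 8.99 to 10.90 in the 11 GLP-2 steers, and the score of 27 B cell follicle genes was 0.83 to 6.31 and 0.40 to 2.30. The ranges overlapped in both scores.

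As background, some of the 16 genes belong to families that act in antigen presentation, in finishing sugar chains or in handling foreign compounds. Others belong to none of these families. Class II molecules of the major histocompatibility complex (MHC), built of an alpha and a beta chain, present peptides to CD4+ T cells, and cattle are known to differ in which DQ genes their MHC haplotypes carry. Class I heavy chains present peptides to CD8+ T cells, and UL16-binding proteins are stress ligands for the receptor NKG2D of natural killer cells. Glycosyltransferases such as B4GALNT2 and FUT6 finish the sugar chains that carry blood group antigens on epithelial glycoproteins and glycolipids. Cytochrome P450 enzymes of family 3A oxidize steroids and foreign compounds, and ATP-binding cassette (ABC) transporters pump compounds out of cells.

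**Figure D1:**
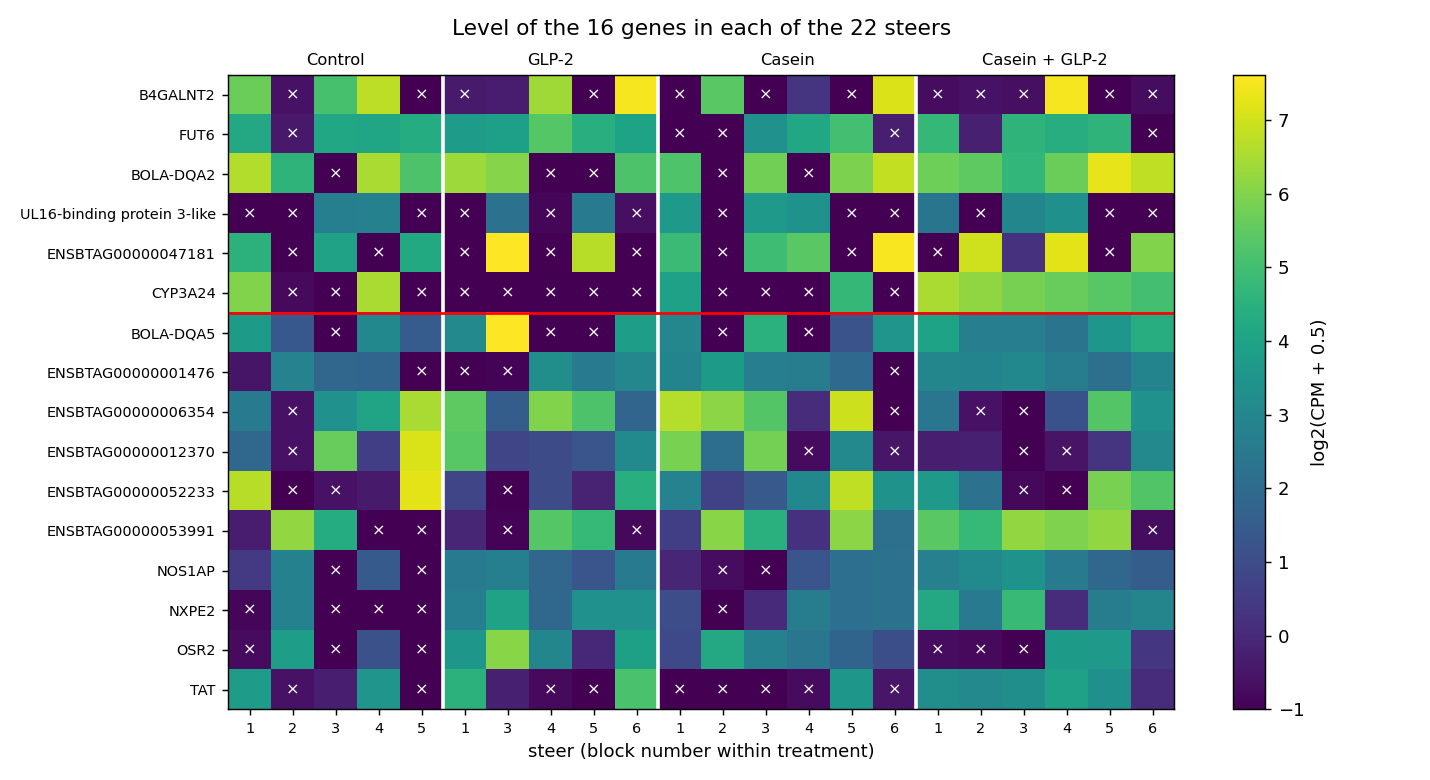
Level of the 16 genes (rows) in each of 22 steers (columns, by treatment and block) as log2(CPM + 0.5), with a cross where a gene had at most 3 counts. The 6 all-or-none genes lie above the red line, and no 2 of them have their crosses in the same set of steers. CYP3A24 has 5 crosses of 5 under GLP-2 and 0 of 6 under casein + GLP-2.

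The 16 genes lay on 12 chromosomes (ARS-UCD1.2), and 3 of them were in the MHC on chromosome 23. The deposited table gave 6 of them a symbol, and 4 of the other 10 carried an NCBI gene number that matched RefSeq. They were BOLA-DQA2, FUT6, CYP3A24 and a UL16-binding protein 3-like gene, and the remaining 6 are given by their Ensembl identifier. In any steer, 2 to 9 of the 16 genes were absent, and 0 to 5 of the 6 all-or-none genes. Control 2, control 5 and casein 2 each lacked 9 genes, and casein + GLP-2 4 lacked 2. Over all rows, the genes with any count numbered 17236, 15318 and 14821 in the former and 18140 in casein + GLP-2 4. Casein 1, with 15140, lacked only 3 of the 16. RNA integrity varied between samples in the study but is not given per steer, so its part in absence was not tested. No pair of the 6 all-or-none genes shared its set of absent steers. Among their 15 pairs, the presence of the genes differed in 7 to 15 steers.

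Among the antigen presentation genes, BOLA-DQA2 (ENSBTAG00000009656, chr23:25583083-25589209, minus strand), an alpha chain of a DQ class II molecule, was present in 17 steers at 23.9 to 155 CPM and had 0 counts in 5. In control steers 1 to 5 its counts were 2043, 289, 0, 1723 and 419, and in GLP-2 steers 1, 3, 4, 5 and 6 they were 914, 1866, 0, 0 and 520. In casein steers 1 to 6 they were 411, 0, 733, 0, 1403 and 1065, and in casein + GLP-2 steers 1 to 6 they were 966, 522, 381, 545, 1892 and 961. It was therefore absent in steers of 3 treatments, and no steer lay between absent and 5 CPM.

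BOLA-DQA5 (ENSBTAG00000038128, chr23:25636255-25643878, minus strand), another DQ alpha chain gene 47.05 kb away, was absent in the same 5 steers, so that 0 of 22 steers had exactly 1 of the 2 genes. In the other 17 steers it had 25 to 5505 counts. The count of 5505, or 194 CPM, was in GLP-2 3, and the next highest was 297 in casein 3. BOLA-DQA5 was also the gene whose level was most like that of BOLA-DQA2 over the 22 steers (Spearman's rho 0.75, with the ranks of both genes taking part of their likeness from the 5 shared zeros). Here and below, the genes most like another were picked by the largest size of rho over the genes that passed the count filter. Such values are high by selection, and none was tested.

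Another alpha chain gene, BOLA-DQA1 (ENSBTAG00000037605, chr23:25691259-25695296, minus strand), was low in a different set of steers. It had 3983 to 41277 counts in 16 steers and 1 to 72 counts in 6. The 6 steers were GLP-2 1 (11 counts), GLP-2 6 (48), casein 1 (1), casein 3 (72), casein 6 (9) and casein + GLP-2 1 (39). In these 6 steers BOLA-DQA2 had 411 to 1065 counts and BOLA-DQA5 82 to 297. In the 5 steers without BOLA-DQA2, BOLA-DQA1 had 12982 (control 3), 41277 (GLP-2 4), 17267 (GLP-2 5), 11735 (casein 2) and 11264 (casein 4) counts. No steer was low in both genes, 11 steers had both, and 11 had only 1 of them, with the line for BOLA-DQA1 drawn at 100 counts after its values were seen. Sets of 5 and 6 steers can also fall apart by chance, and this was not tested.

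**Figure D2:**
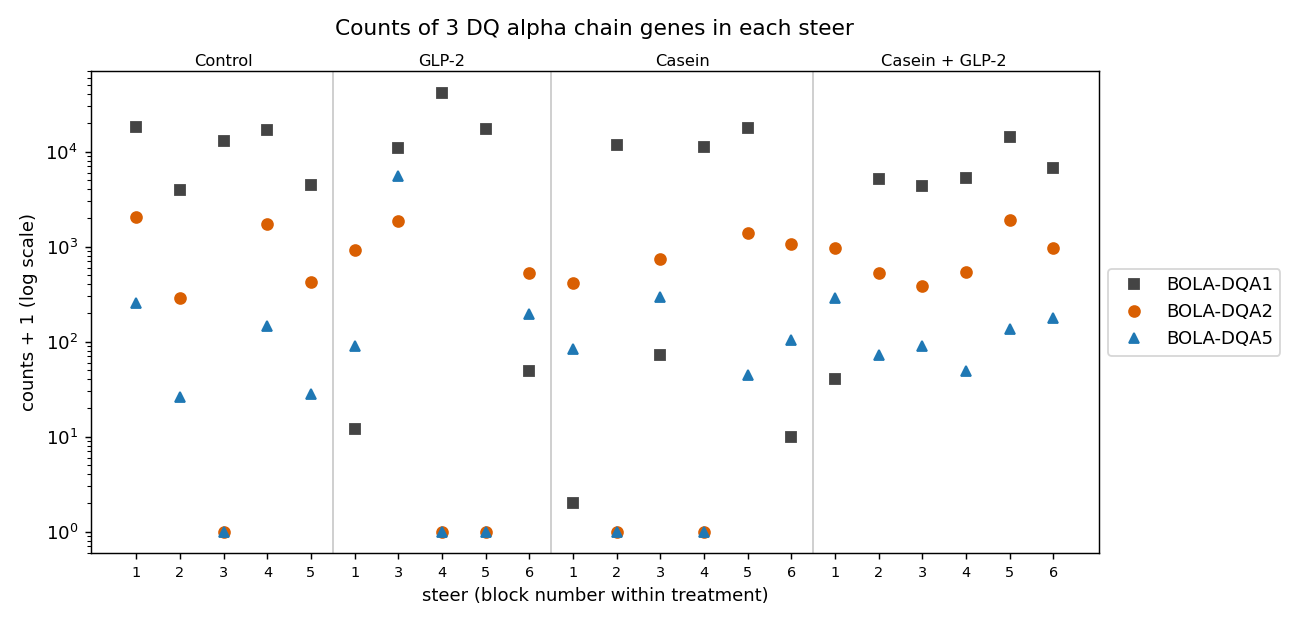
Counts plus 1 on a log scale for BOLA-DQA1, BOLA-DQA2 and BOLA-DQA5 in each of 22 steers, ordered by treatment and block. BOLA-DQA2 and BOLA-DQA5 lie together at 0 counts in 5 steers in which BOLA-DQA1 has 11264 counts or more, and BOLA-DQA1 falls to 72 counts or fewer in 6 other steers.

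Of the beta chain genes beside them, BLA-DQB (ENSBTAG00000019588) had 327 to 18718 counts and was present in all 22 steers, and BOLA-DQB (ENSBTAG00000021077, chr23:25607502-25622150, plus strand), which lies between BOLA-DQA2 and BOLA-DQA5, had 5972 counts in GLP-2 3 and at most 4 in every other steer. GLP-2 3 was thus the steer with the highest count of both BOLA-DQA5 and BOLA-DQB. The class II genes outside DQ were read in every steer, with 16111 to 83331 counts for BOLA-DRA and 4215 to 23768 for DRB3 (ENSBTAG00000013919). Where copies of a family are alike in sequence, the authors' counting could divide or lose their reads, so the count of any single copy in the families here is uncertain, and the likeness of the copies was not measured.

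ENSBTAG00000001476 (chr23:27896902-27905422, plus strand), a gene with a class I domain, was absent in 4 steers, present below 5 CPM in 5, and had at most 12.3 CPM. The 4 steers were control 5, GLP-2 1, GLP-2 3 and casein 6, with 0, 0, 1 and 0 counts. Its neighbour ENSBTAG00000012208 (chr23:27871206-27875056, plus strand), a class I heavy chain gene 21.84 kb away, had 1, 6, 16 and 4 counts in those 4 steers and 140 to 1668 in the other 18. This fell outside the rule for paired genes by the 3-count limit and is given because its values were seen. The class I genes JSP.1 and BOLA, farther along the chromosome, had 37 to 12028 and 4130 to 67416 counts.

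The UL16-binding protein 3-like gene (ENSBTAG00000036061, chr9:87207805-87226372, plus strand), which by its name encodes an NKG2D ligand, was absent in 12 steers and had 55 to 164 counts in 10. Its counts were 0, 0, 73, 122 and 0 in control steers 1 to 5 and 0, 118, 1, 55 and 2 in GLP-2 steers 1, 3, 4, 5 and 6. They were 133, 0, 164, 108, 0 and 0 in casein steers 1 to 6 and 85, 0, 107, 101, 0 and 0 in casein + GLP-2 steers 1 to 6. By block, it was absent in 3 of 3 steers of block 2, 3 of 3 of block 6 and 3 of 4 of block 5, and in 0 of 4 steers of block 3.

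Another gene with a class I domain, ENSBTAG00000024751 (chr9:87170608-87183814, plus strand), 23.99 kb upstream of it, was the gene most like it over the 22 steers (rho 0.87). It had 14 to 41 counts in the 10 steers with the UL16-binding protein 3-like gene and 0 to 12 in the 12 without. The next gene of the family, RAET1G (ENSBTAG00000039329), had 0 to 31 counts, and ULBP13 (ENSBTAG00000048950) had 0 to 103. TMOD2, an actin-capping tropomodulin, was the next most alike, in the opposite direction (rho -0.82), with 0 to 50 counts.

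Among the glycosyltransferases, B4GALNT2 (ENSBTAG00000009864, chr19:37392145-37431777, minus strand), which adds N-acetylgalactosamine to make the Sd(a) antigen, was absent in 12 steers, had 8 counts in 2 and was at 34.1 to 180 CPM in 8. Its counts were 1054, 2, 408, 2057 and 0 in control steers 1 to 5 and 3, 8, 1921, 0 and 2570 in GLP-2 steers 1, 3, 4, 5 and 6. They were 0, 376, 0, 8, 0 and 1352 in casein steers 1 to 6 and 2, 2, 2, 1925, 0 and 1 in casein + GLP-2 steers 1 to 6. High steers were found in each treatment, and there was only 1 of 6 under casein + GLP-2. By block, it was absent in 4 of 4 steers of block 5 and in 0 of 4 of block 4.

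The long non-coding RNA gene ENSBTAG00000055056 (chr19:37376654-37391594, plus strand) lies on the opposite strand just past the 3′ end of B4GALNT2, with 0.55 kb between the genes. It had 565 to 2868 counts in the 8 steers with high B4GALNT2 and 0 to 18 in the other 14. The libraries were strand-specific, but the strand setting of the counting was not given in the sources used here, so reads of the 2 genes are not known to be kept apart. B4GALNT1, a paralog that builds gangliosides, had 739 to 5215 counts and was present in all 22 steers. After the long non-coding gene (rho 0.74), the genes most like B4GALNT2 were CCNA1, a cyclin (rho 0.73), and ZCRB1, a splicing factor (rho 0.72).

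**Figure D3:**
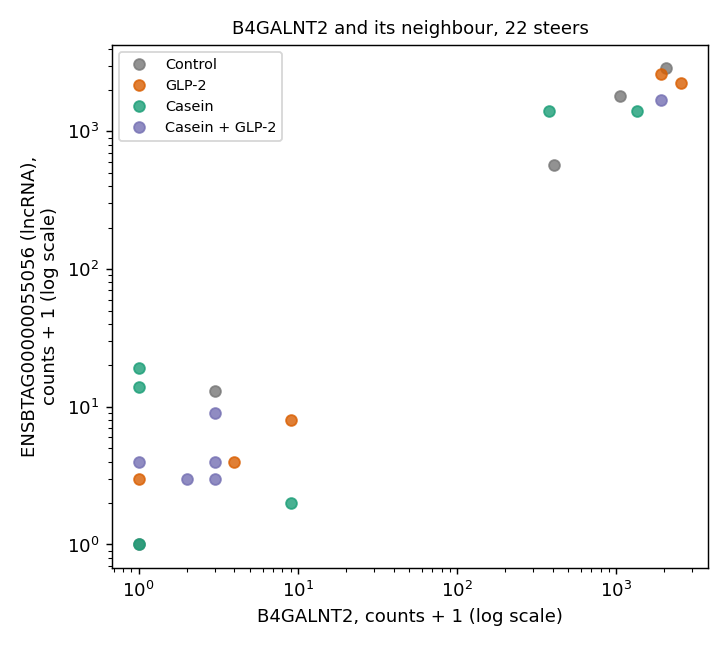
Counts plus 1 of B4GALNT2 (x axis) and of the neighbouring long non-coding RNA gene (y axis) in 22 steers, both on log scales and coloured by treatment. The 8 steers at 376 counts or more of B4GALNT2 are the 8 at 565 counts or more of the neighbour, and all 4 treatments have steers in both clusters.

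FUT6 (ENSBTAG00000000414, chr7:18515026-18516457, plus strand), which adds fucose in the making of Lewis-type antigens was absent in 5 steers, had 4 counts in 1 and was at 9.85 to 39.7 CPM in 16. Its counts were 371, 3, 208, 306 and 227 in control steers 1 to 5 and 146, 396, 918, 222 and 221 in GLP-2 steers 1, 3, 4, 5 and 6. They were 0, 0, 133, 182, 770 and 3 in casein steers 1 to 6 and 487, 4, 353, 213, 294 and 0 in casein + GLP-2 steers 1 to 6.

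The low FUT6 steers were therefore all 3 steers of block 2 (3, 0 and 4 counts), 2 of 3 of block 6 and 1 of 4 of block 1. The fucosyltransferases FUT1, FUT2 and FUT4 were present in all 22 steers, with 81 to 2205, 82 to 1119 and 97 to 1816 counts, and none of them lacked reads where FUT6 did. The named genes most like FUT6 were GUSB, a lysosomal glucuronidase (rho 0.66), and NCALD, a calcium sensor (rho -0.66).

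CYP3A24 (ENSBTAG00000054260, chr25:36710741-36759920, minus strand) was the all-or-none gene whose presence followed the treatments most. Its counts were 1286, 1, 0, 1724 and 0 in control steers 1 to 5 and 0 in each of the 5 GLP-2 steers. They were 164, 0, 0, 0, 618 and 0 in casein steers 1 to 6 and 1706, 850, 858, 518, 500 and 284 in casein + GLP-2 steers 1 to 6. It was thus present in 2 of 5 control, 0 of 5 GLP-2, 2 of 6 casein and 6 of 6 casein + GLP-2 steers, at 14.9 to 91.9 CPM, and no steer lay between.

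Over all counts of a treatment, CYP3A24 stood at 40.0 CPM in control, 10.1 in casein and 61.2 in casein + GLP-2. Under GLP-2 there were 0 counts in 87733280, which allows up to 0.0342 CPM (3 counts over the group, covering counting error only). Casein + GLP-2 was at least 1790-fold higher than GLP-2 on that floor, in counts pooled over the steers of each treatment. That contrast did not pass in edgeR (padj = 0.995). The casein × GLP-2 interaction for CYP3A24 did not pass in edgeR either, with padj = 0.996 over 15086 genes. DESeq2's Wald test gave padj = 2.09e-12 for it, with a fitted value that a group of zeros leaves without a bound. The presence of the gene under casein (8 of 12 steers) against water (2 of 10) had p = 0.0427 by a 2-sided Fisher's exact test and padj = 1 over all genes.

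Both genes that the table names CYP3A5 were present in all 22 steers. ENSBTAG00000049666 (chr25:36530341-36569035) had 44 to 6546 counts and ENSBTAG00000053645 (chr25:36648051-36691853) had 18 to 1124, and in the 5 GLP-2 steers without CYP3A24 they had 653, 3317, 910, 841 and 940 and 30, 166, 91, 175 and 196. No CYP3A paralog met the rule for an opposite pair given below. The genes most like it were FUNDC1, a mitophagy receptor (rho 0.80), and THEM4, a thioesterase (rho 0.75).

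**Figure D4:**
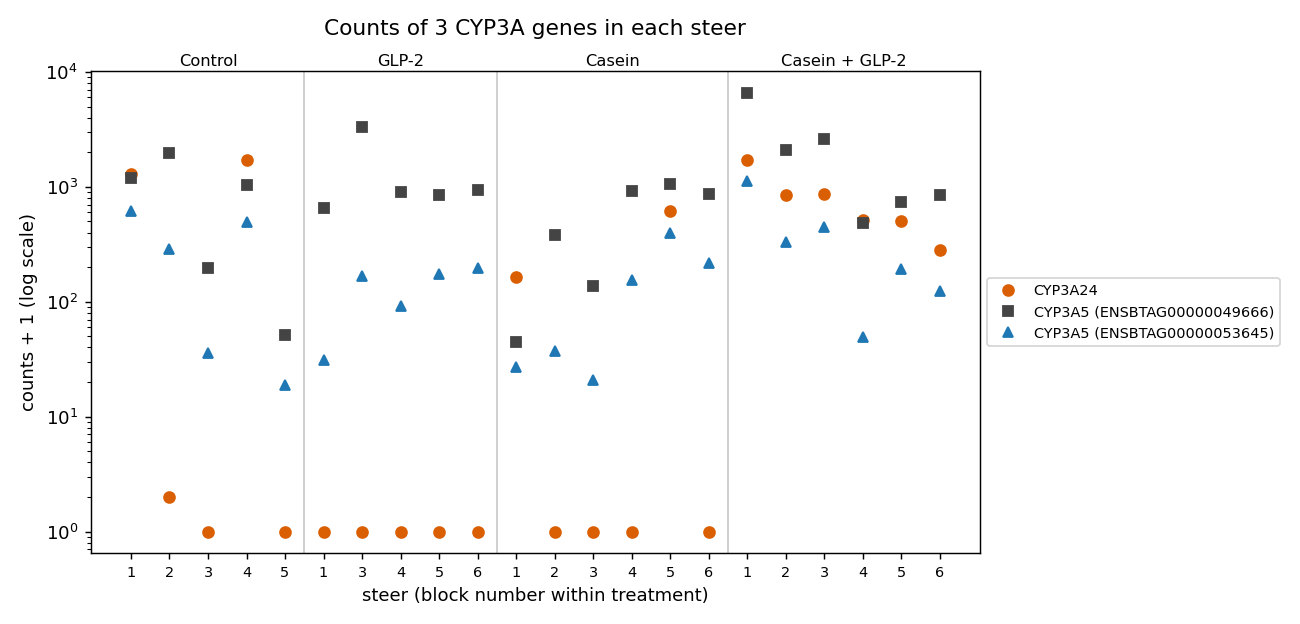
Counts plus 1 on a log scale for CYP3A24 and the 2 genes named CYP3A5 in each of 22 steers, by treatment and block. CYP3A24 is at 0 in all 5 GLP-2 steers and at 284 to 1706 counts in all 6 casein + GLP-2 steers, while both CYP3A5 genes have 18 counts or more in every steer.

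The last all-or-none gene, ENSBTAG00000047181 (chr12:71977720-72139274, minus strand), carries the membrane domain of an ABC transporter. It had 0 counts in 9 steers, 10 in 1 and 15.0 to 195 CPM in 12. Its counts were 463, 0, 180, 0 and 209 in control steers 1 to 5 and 0, 5553, 0, 1069 and 0 in GLP-2 steers 1, 3, 4, 5 and 6. They were 313, 0, 409, 446, 0 and 1731 in casein steers 1 to 6 and 0, 1508, 10, 1654, 0 and 557 in casein + GLP-2 steers 1 to 6.

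High steers of the ABC gene were found in 2 to 4 steers of every treatment, and absent ones as well. The pseudogene ENSBTAG00000026070 (chr12:71263913-71411435, minus strand), with the same domain, had 3 to 380 counts in the 9 steers without it and 0 to 232 in the 12 with it, so the ranges overlapped. Of other ABC genes on the chromosome, ENSBTAG00000023309 had 0 to 174 counts and ENSBTAG00000032603, described as multidrug resistance-associated protein 4, 0 to 275. STC2, a secreted glycoprotein, was the gene most like the ABC gene ENSBTAG00000047181, in the opposite direction (rho -0.66, the largest in size over the filtered genes and not tested).

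Across 570 pairs of a member with another member, a protein-coding neighbour within 500 kb or a gene of its family, 0 pairs were opposite (exactly 1 of the 2 genes above 3 counts in at least 20 steers) and 2 were alike (in at most 2 steers). The alike pairs were BOLA-DQA2 with BOLA-DQA5 (0 steers) and ENSBTAG00000052233 with ENSBTAG00000048730 (1 steer). Families were taken from symbols and descriptions only, and protein identity was not computed. Paralogs farther than 500 kb from a gene without a symbol or description could therefore be missed. With presence set at 5 CPM, 0 pairs were opposite and 0 alike. The highest number of discordant steers between 2 members was 15 of 22. BOLA-DQA1 was low only in steers that had BOLA-DQA2, but its low steers kept 1 to 72 counts. The paralogs were not ranked by how far their levels ran opposite.

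Of the 10 graded genes, ENSBTAG00000052233 (chr17:70829330-70829761, plus strand) has the V-set domain of immunoglobulin and T cell receptor variable regions and lay among other V-set genes. It was absent in 5 steers and reached 2585 counts, in casein 5. ENSBTAG00000048730, 51489 bases away, was absent in 4 of the same 5 steers, with at most 347 counts, and ENSBTAG00000047986 and ENSBTAG00000046322 had at most 420 and 25. ENSBTAG00000053991 (chr19:14171162-14176473), with no described domain, was absent in 5 steers and had up to 1642 counts.

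On chromosome 18, TAT (chr18:39435299-39493837, plus strand), the tyrosine aminotransferase that starts tyrosine breakdown, and ENSBTAG00000006354 (chr18:39037402-39043531, minus strand), with a trypsin domain, lay 391.77 kb apart. TAT was absent in 9 steers and had at most 503 counts. It was present in 3 of 5 control, 3 of 5 GLP-2, 1 of 6 casein and 6 of 6 casein + GLP-2 steers. ENSBTAG00000006354 was absent in 4 steers and had up to 2914 counts.

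OSR2 (chr14:65332265-65339913), a zinc finger transcription factor, was absent in 6 steers, 3 of 5 control and 3 of 6 casein + GLP-2. NXPE2 (chr15:25175647-25188639) and NOS1AP (chr3:7135834-7264277), an adaptor protein of neuronal nitric oxide synthase, were absent in 5 and 4 steers, all of them injected with BSA. NXPE4, the neighbouring family member of NXPE2, had 0 to 237 counts. ENSBTAG00000012370 (chr5:95024682-95028653), with no described domain, was absent in 5 steers and reached 1596 counts in control 5.

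The treatment comparisons asked whether GLP-2 or casein moved these genes. Between the 11 GLP-2 and the 11 BSA steers, 0 of the 16 genes passed padj of 0.05 in edgeR (quasi-likelihood, Benjamini-Hochberg adjusted), where 11.2% of all 15086 genes tested did. At an unadjusted p of 0.05, 4 of 16 passed, against 32.6% of all genes. With the replicate block in the model, 0 of the 16 passed and 0% of all genes did. DESeq2's Wald test called 1 of 16, NXPE2, against 20% of all genes. Limma on log2 FPKM called 2, NXPE2 and NOS1AP, against 13% of all genes with a pseudocount of 1 and 12.3% with 0.1. The median size of the log2 fold change was 1.08 among the 16 and 0.35 among all genes, with median standard errors of 1.03 and 0.23, so the 16 genes needed larger differences to pass.

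NXPE2 was the nearest to the threshold. Its counts were 1, 78, 0, 0 and 0 in control steers 1 to 5 and 68, 433, 73, 103 and 140 in GLP-2 steers 1, 3, 4, 5 and 6. They ran from 0 to 93 with a median of 28.0 in casein and from 6 to 416 with a median of 67.5 in casein + GLP-2. The log2 fold change between GLP-2 and BSA was 2.41 ± 0.82 (SE, n = 11 each, padj = 0.0555 by edgeR), and it was present in 11 of 11 GLP-2 and 6 of 11 BSA steers (p = 0.0351 by a 2-sided Fisher's exact test, padj = 1). The groups overlapped, with 78 counts in control 2 and 6 in casein + GLP-2 4. The difference passed at padj = 0.0219 without control 2, and at 0.0421 to 0.0491 without any 1 of GLP-2 1, GLP-2 4, casein 4, casein 6 or casein + GLP-2 4. It did not pass in the other 16 of 22 runs with 1 steer left out (padj of 0.0541 to 0.0997 by edgeR). With the replicate block in the model it did not pass either (padj = 0.149 by edgeR).

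NOS1AP had 18, 77, 0, 42 and 0 counts in control steers 1 to 5 and 61, 175, 71, 20 and 79 in GLP-2 steers 1, 3, 4, 5 and 6. In casein its counts ran from 0 to 93 with a median of 12.5, and in casein + GLP-2 from 21 to 152 with a median of 76.5. The groups overlapped here too, and its log2 fold change was 1.56 ± 0.69 (SE, padj = 0.120 by edgeR), which passed without control 2 (padj = 0.0381). In the other 21 of 22 runs with 1 steer left out NOS1AP did not pass (padj of 0.0845 to 0.183 by edgeR). The level of NOS1AP followed the villus enterocyte score (rho 0.88 over 22 steers) and ran against the follicle score (rho -0.84), and that of NXPE2 did so as well (0.73 and -0.78). Of the 27 follicle genes 24 passed as lower with GLP-2 by edgeR. All 23 enterocyte genes had a positive log2 fold change (median 0.94), of which 3 passed, where 11.2% of all genes did. With the follicle score as a covariate the log2 fold changes were 1.09 for NXPE2 and 0.24 for NOS1AP, and 0% of all genes passed in that model, so that it separates these genes from no others.

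BOLA-DQA5 had a log2 fold change of 2.34 ± 1.00 (SE, padj = 0.109 by edgeR) between GLP-2 and BSA, and it was 0.67 without GLP-2 3 and 0.63 in DESeq2. ENSBTAG00000012370 had a log2 fold change of -2.25 ± 1.06 (SE, padj = 0.141 by edgeR), and its counts were 66, 2, 579, 19 and 1596 in control and 458, 35, 34, 20 and 119 in GLP-2 steers. Under casein its counts ran from 1 to 761 and under casein + GLP-2 from 0 to 69, so the groups overlapped. It was most like DPT, CXCL12 and FHL1 (rho 0.94, 0.94 and 0.93), genes of fibroblasts and muscle, and it followed the smooth muscle score (rho 0.84). That score was 1.77 to 6.61 in BSA steers and 1.82 to 5.80 in GLP-2 steers. With the follicle score as a covariate its log2 fold change was 0.81, in the other direction, and without GLP-2 1 it passed at padj = 0.0353. In the other 21 of 22 runs with 1 steer left out it did not pass (padj of 0.0823 to 0.297 by edgeR).

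Between the 12 casein and the 10 water steers, 0 of the 16 genes passed by edgeR, where 0% of all genes did, and 0 of 16 had an unadjusted p of 0.05 or less, against 3.21%. DESeq2 and limma also called 0 of the 16, and 0.0398% and 0% of all genes. The interaction of casein with GLP-2 was past the threshold for 0 of the 16 by edgeR and 0% of all genes, with 1 of 16 (CYP3A24) at an unadjusted p of 0.05 against 4.28%. DESeq2 called that gene and 2 genes in all (0.0133%), and limma called 0 of 16 and 0% of all genes. In comparisons of single treatments, 0 of the 16 passed by edgeR, as did 0% of all genes, and the counts at an unadjusted p of 0.05 were 3 of 16 for GLP-2 against control (13.9% of all genes), 1 for casein + GLP-2 against casein (24.1%), 1 for casein + GLP-2 against GLP-2 (2.64%) and 0 for casein against control (5.66%).

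Presence alone could call few of these genes in this design. With 11 steers in each injection group, the smallest p that Fisher's exact test allows a gene absent in 12 steers is 3.40e-05, which alone gives padj = 0.513 over 15086 genes, and for fewer absent steers padj is 1, so none of the 16 could pass alone for GLP-2. For casein only the 3 genes absent in 12 steers could (padj of 0.0233 at best). Of the 16 genes 0 passed in either comparison, and 0% of all genes did. For this reason the result says nothing about any of the 16 genes for GLP-2, and nothing about the other 13 for casein. At an unadjusted p of 0.05, NXPE2 passed for GLP-2 (0.696% of all genes) and CYP3A24 for casein (0.305%).

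The 4 treatments held a median of 17.3% of the variance of log2(CPM + 0.5) over the 22 steers in the 16 genes and 20.8% in all genes tested, while groups that do not differ are expected to hold 14.3%. The standard deviation itself had a median of 2.44 in the 16 genes and 0.58 in all genes, as the rule that chose them ensured. CYP3A24 (57.7%), NXPE2 (49.8%) and NOS1AP (41.8%) had the highest shares, and the ABC gene (2.51%), the UL16-binding protein 3-like gene (3.02%) and B4GALNT2 (7.38%) were among the 4 lowest with ENSBTAG00000052233 (7.17%). In the all-or-none genes other than CYP3A24 the shares were 2.51% to 16.5%.

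The 6 blocks held a median of 23.1% in the 16 genes and 20.5% in all genes, and 23.8% would be held by blocks that do not differ. FUT6 (66.2%), ENSBTAG00000052233 (55.3%), the UL16-binding protein 3-like gene (53.8%) and B4GALNT2 (41.6%) had the highest block shares. No test of the blocks was made.

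**Figure D5:**
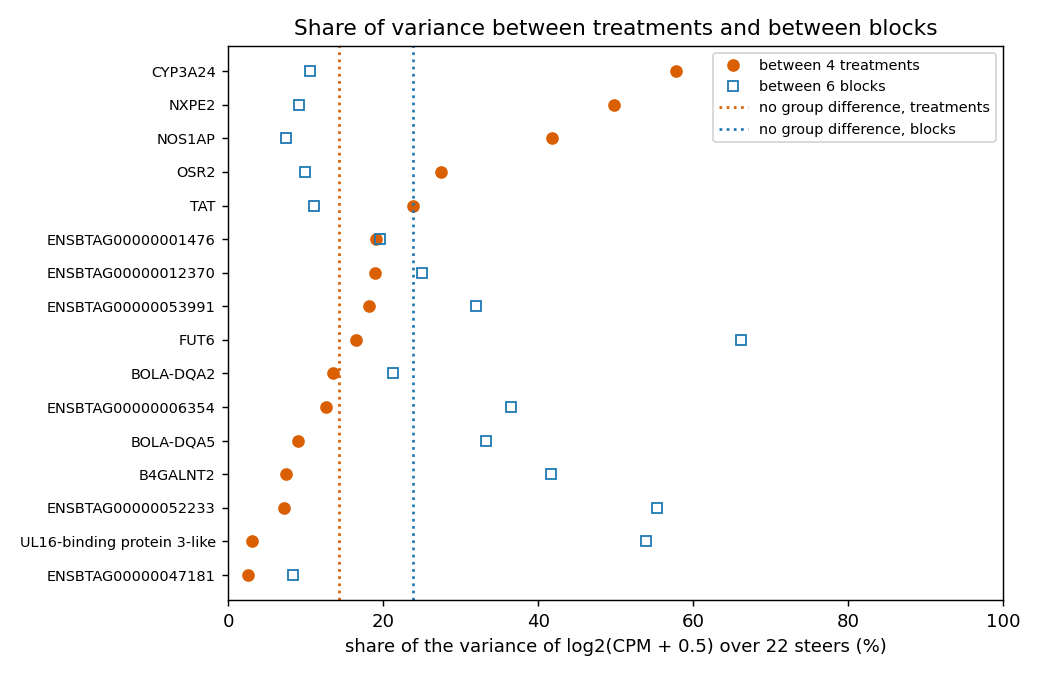
Share of the variance of log2(CPM + 0.5) over 22 steers that lies between the 4 treatments (filled circles) and between the 6 blocks (open squares) for each of the 16 genes, with dotted lines at the 14.3% and 23.8% that groups without a difference would hold. CYP3A24, NXPE2 and NOS1AP lie farthest right for treatment, and FUT6 lies farthest right for block at 66.2%.

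The all-or-none genes were also set beside the cell type scores. Their rho with the villus enterocyte score was -0.07 to 0.28 and with the follicle score -0.22 to 0.17, while the 10 graded genes ran from -0.73 to 0.88 and from -0.84 to 0.70. Over all genes tested, the median size of rho was 0.49 and 0.45. Of the graded genes, only NOS1AP, NXPE2, ENSBTAG00000006354 and ENSBTAG00000012370 exceeded these medians in size. The other graded genes ran from -0.27 to 0.47 and from -0.43 to 0.33, so low values were not particular to the all-or-none genes. For the smooth muscle score the all-or-none genes ran from -0.54 (CYP3A24) to 0.00 and the graded genes from -0.61 to 0.84, with a median size of 0.36 over all genes. For the plasma cell score the ranges were -0.27 to 0.07 and -0.79 to 0.82, with 0.46 over all genes. For the MHC class II score, a mean over 7 genes, the all-or-none genes ran from -0.21 to 0.40 (FUT6). The graded genes ran from -0.36 to 0.27, with 0.23 over all genes. The lowest class II scores, 5.37 to 6.22, were in the 6 steers with 1 to 72 counts of BOLA-DQA1, and the other steers had 6.35 or more. How far that gene shaped the class II values of rho was not tested. These correlations are descriptions over 22 steers that share library depth and tissue composition.

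Near the limits of the rule, 3 of the 16 genes were absent in exactly 4 steers and 4 were at 5 CPM in exactly 8. Just outside, 17 genes missed the rule by 1 steer. Of these, 10 were absent in 3 steers, among them ART5, SLC13A1, CLDN5 and SLIT3, and 7 were at 5 CPM in 7 steers, among them the pancreatic-type trypsin gene PRSS2 (absent in 15), the defensin DEFB4A (absent in 5) and a sulfotransferase gene, ENSBTAG00000026611 (absent in 10).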

How the data were processed

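Jejunal mucosa of 22 steers was sequenced by the authors from poly-A selected, strand-specific libraries. Per the labels and the study's methods, reads were aligned to ARS-UCD1.2 with HISAT2 2.0.5 and counted per gene with featureCounts 1.5.0-p3. StringTie 1.3.3b and DESeq2 1.20 are also named in the submitters' processing notes. The raw counts deposited by the authors were the main data. The deposited FPKM values were the authors' length- and depth-scaled counts, carry a further constant per steer that no source used here describes, and served only as an alternative. Groups were taken from the sample titles, and n is the number of steers, each 1 library.

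The 16 genes, the gene lists and the comparisons were chosen with earlier results of these data known. Genes named are the all-or-none genes, called genes, genes of alike or opposite pairs, the genes most like each all-or-none gene, and examples of the rest. One further gene that meets the thresholds is not reported here. RefSeq names (ARS-UCD2.0) were matched by NCBI gene number, without coordinates.

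Of 27570 genes, 15086 passed filterByExpr (minimum count 10), including all 16. In R 4.3.3, edgeR 4.0.16 fitted TMM-normalized counts by quasi-likelihood, with pooled groups for GLP-2 and casein and 4 treatments for the interaction, at a Benjamini-Hochberg adjusted threshold of 0.05. Presence was compared by Fisher's exact test, 2-sided. DESeq2 1.42.0 and limma 3.58.1 (on log2 FPKM with pseudocounts 1 and 0.1) were alternatives. The variance share used log2(CPM + 0.5). Scripts were tested on simulated data, in which counts were not drawn to be all or none and the presence test covered fewer genes than here. The floor given for CYP3A24 covers counting error only. Each SE is the size of the log2 fold change divided by the square root of the quasi-likelihood F, and so includes spread between steers. No 2 libraries were identical. Steers had been randomized to treatments within blocks. The models had no block term, and a replicate block was an alternative. Same-block steers of different treatments had a mean correlation of 0.033 in their deviations over 30 pairs, of which 13 exceeded 0.1. For steers of other blocks and treatments the mean was -0.0064 over 151 pairs, of which 55 exceeded 0.1. No sequences are given here.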

Additional observations from a re-analysis of the deposited data

Results flagged for a closer look

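In 9 of 63 combinations of a gene and a treatment with any steer above 3 counts, 1 steer lay far from the rest of its treatment group by Dixon's criterion on log2(CPM + 0.5), where chance flags about 1 in 20 groups. These genes were chosen for steers at their extremes, so such gaps come with the choice. Single absent steers were control 3 for BOLA-DQA2 (ENSBTAG00000009656, 0 counts, others 289 to 2043), control 2 for FUT6 (ENSBTAG00000000414, 3 counts, others 208 to 371), casein + GLP-2 6 for ENSBTAG00000053991 (1 count, others 316 to 1105) and casein 6 for ENSBTAG00000001476 (0 counts, others 61 to 111). Casein + GLP-2 6 was also low for TAT, with 5 counts against 92 to 168. Single high steers were casein + GLP-2 4 for B4GALNT2 (1925 counts, others 0 to 2), casein 5 for TAT (267, others 0 to 2), control 2 for NXPE2 (78, others 0 to 1) and casein + GLP-2 6 for ENSBTAG00000012370 (69, others 0 to 9).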

How the results depend on the processing

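Between GLP-2 and BSA, 1688 genes were called in all, 3021 by DESeq2, 0 with the follicle score as a covariate, and 506 (without control 3) to 3617 (without control 2) with 1 steer left out. Of the 16 genes, 0 were called, 1 by DESeq2 and 1 with the filter on 2 pooled groups, 2 by limma with either pseudocount, and 0 to 2 with 1 steer left out. With the replicate block as a term, 0 genes were called in all for GLP-2 and 0 of the 16 in each of the 3 comparisons. For ENSBTAG00000012370 the log2 fold change became 0.81 with the follicle covariate. Between casein and water, 0 genes were called in all, 6 by DESeq2, 2 in the model of 4 treatments and 0 to 1 with 1 steer left out. For the interaction, 0 genes were called, 2 by DESeq2, of which 1 was among the 16 (CYP3A24). The rule itself gave 16 genes, 8 with 0 counts in place of at most 3, 62 with at most 10, 99 at 2 CPM and 9 at 10 CPM, and 12 to 16 with 1 steer left out. The fewest came without control 3. All-or-none genes numbered 4 to 9 when the number of steers between or its limit was changed. The presence tests also gave 0 calls under their alternatives, in a design in which few of the 16 genes could pass. The median treatment share was 14.5% to 23.9% with 1 steer left out. The simple effects within each treatment, the block share and presence at 5 CPM for pairs were chosen after seeing the data, and the simple effects called 0 of the 16. Depth limits absence to about 0.105 to 0.341 CPM.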

Other observations

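Casein 6 had 0 counts of the class I gene ENSBTAG00000001476, 4 of ENSBTAG00000012208 and 37 of JSP.1, the lowest JSP.1 count of the 22 steers. Its score over 17 class I genes (mean log2 CPM) was 7.62, above that of control 5 (7.22), control 3 (7.48) and GLP-2 1 (7.61). Casein + GLP-2 3 had the next lowest JSP.1 count, at 146, with 112 and 995 of the other 2 genes. The class I gene BOLA had 8592 and 23151 counts in these steers, and 4130 in control 5.

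Among the graded genes, OSR2 was most like SLC6A19 (rho 0.91), a neutral amino acid transporter of the brush border, and ANPEP (rho 0.89), a brush border aminopeptidase, although its rho with the villus enterocyte score was 0.34. NOS1AP was most like TMEM30B (rho 0.96), and against FKBP1A (rho -0.95). ENSBTAG00000006354, with a trypsin domain, followed the plasma cell score (rho 0.82) and ran against the enterocyte score (rho -0.73). TAT was most like PBX2, in the opposite direction (rho -0.81).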
